A study of Mus musculus with 8 samples.

Results

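The WNT effectors and feedback targets described here are 10 of the 55421 gene identifiers in the count table: the DNA-binding factors Lef1, Tcf7, Tcf7l1 and Tcf7l2, their partner Ctnnb1, and the target genes Notum, Sp5, Axin2, Tnfrsf19 and Dkk1. They were chosen by name, with counts and fold changes from all 8 libraries already known, so their levels and differences are descriptions and carry no test of their own. Polyadenylated RNA of mouse embryonic stem cells (129/Ola background, serum and LIF, gelatin-coated plates) was read at the 3′ ends of transcripts by QuantSeq. One set of libraries compared untreated wild-type cells (WT) with untreated E14 cells in which the miR-290-295 microRNA cluster is knocked out (KO). The other set, prepared and sequenced apart from the first, held KO cells treated for 36 hours with a siPOOL, a mixture of small interfering RNAs, at 5 nM. The siPOOL was directed at the transcription factor gene Tfap4 (siTfap4) or was a negative control (siNeg), so both groups of this set lack the cluster. There are 4 groups, each with 2 libraries from biological duplicates. The labels do not say whether the KO cells are a single clone, and no group restores the cluster. The titles of WT replicate 1 and KO replicate 2 share a tag, CC, whose meaning is not given.

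In WNT signalling a secreted WNT protein binds a Frizzled receptor together with LRP5 or LRP6, which stops the destruction complex from degrading β-catenin, the protein made from Ctnnb1. β-catenin then enters the nucleus and joins the TCF/LEF factors, which occupy target genes and repress many of them when no signal comes. In embryonic stem cells TCF7L1 is known as a repressor of pluripotency genes, and β-catenin relieves that repression. Several targets act back on the pathway: Axin2 encodes a scaffold of the destruction complex, Notum an enzyme that removes the lipid from WNT proteins, Dkk1 a blocker of the LRP co-receptors, and Sp5 a zinc finger factor that acts at WNT target genes.

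Library totals ranged from 8326675 to 12726123 counts. Levels are CPM, counts scaled to a common library size with TMM factors, given per library or as mean ± SD over n = 2. A 3′ read marks a transcript end, so levels were compared between genes without division by length. Tfap4, the targeted gene, measured 34.4 and 37.3 CPM in the siNeg libraries and 12.3 and 15.8 CPM in the siTfap4 libraries, 2.54-fold lower. It measured 19.6 and 16.4 CPM in WT against 48.9 and 42.0 CPM in KO libraries. Duplicates differed by more than counting error, with a chi-square per degree of freedom of 11.7 to 38.4. Pluripotency markers (5 of 5 detected, Sox2 the most abundant) summed to between 1598 and 2072 CPM in every library. Of these, Utf1 fell in KO against WT, a call (edgeR adjusted p under 0.05) lost with any 1 library left out (log2 fold change -1.05 to -0.79). In siTfap4 against siNeg Pou5f1 rose and Nanog fell. Pou5f1 lost its call without siNeg replicate 1 (log2 fold change 0.94) or siTfap4 replicate 1 (0.86), and Nanog without siNeg replicate 1 (-1.305).

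A microRNA pairs with its target transcripts chiefly through its seed. Mature 3p sequences from the deleted cluster are shown because KO cells lack them, though the list does not cover the whole cluster. The sequences shown come from RefSeq (GRCm38.p6, plus strand of chromosome 7), with bases 2 to 8, the seed, in capitals.
mmu-miR-291a-3p: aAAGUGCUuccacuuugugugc
mmu-miR-294-3p: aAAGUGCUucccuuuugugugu
mmu-miR-295-3p: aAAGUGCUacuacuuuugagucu
mmu-miR-290a-3p: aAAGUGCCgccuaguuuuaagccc
mmu-miR-291b-3p: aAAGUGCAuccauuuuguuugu
mmu-miR-293-3p: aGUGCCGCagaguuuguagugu
The first 3 have the same seed, miR-290a-3p and miR-291b-3p differ from it in its last base, and miR-293-3p has another seed.

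The annotated 3′ UTRs of the 10 genes (GENCODE M21, GRCm38) were searched for 4 words. AGCACTT pairs with the seed of the first 3 microRNAs, GGCACTT with that of miR-290a-3p and TGCACTT with that of miR-291b-3p. The word GCACTTA pairs with the bases before the last of these seeds and adds an A, and it can overlap each of the others by 6 bases. The seed of miR-293-3p was not searched. Lef1, Tcf7, Tnfrsf19 and Dkk1 hold at least 1 word, 4 of the 10 genes, where 34% of 12786 tested genes with such a UTR hold one. The sites are shown with the word in capitals.
Lef1, chr3:131224069-131224093, plus strand: aaaaagcccAGCACTTgaattgttc
Tcf7, chr11:52252452-52252476, minus strand: tataaccccAGCACTTgcgagatag
Tnfrsf19, chr14:60965966-60965990, minus strand: ttgaagaaaGGCACTTtctaatcag
Tnfrsf19, chr14:60964280-60964304, minus strand: tctacaaccTGCACTTcacattatt
Dkk1, chr19:30546954-30546978, minus strand: cctcagtgtGGCACTTacctgtaaa
The Dkk1 site also reads as GCACTTA, 1 base further on. A match describes letters and is not a shown binding site, and a missing word says nothing of the microRNA. The genes that hold a word did not share a direction: Lef1 and Tnfrsf19 were higher in KO than in WT libraries, and Tcf7 and Dkk1 were lower. Neither Tcf7 nor Dkk1 had an edgeR adjusted p under 0.05 in this comparison, and Dkk1 had 3 counts in each KO library.

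Promoter windows from RefSeq (GRCm38.p6, 250 bases before to 50 after an annotated start) were present for 9 of the 10 genes, without Notum. Both strands were searched for CTTTGAT and for CTTTGAA, forms of the TCF/LEF word, and, after results had been seen, for CAGCTG, an E-box of the kind that TFAP4 binds. The 9 genes have 16 windows, since some have several starts. A TCF/LEF word stands in 3 of the 16 (18.8%), of Sp5, Tnfrsf19 and Dkk1, where 8.65% of all 32851 windows hold one. The E-box stands in 3 of the 16, of Lef1, Tcf7 and Tnfrsf19, near the 16.3% of all windows that hold it. All 6 hits are shown with the word in capitals, the TCF/LEF words first. The TCF/LEF word of Tnfrsf19 lies on the opposite strand and so reads ATCAAAG.
Sp5, chr2:70474808-70474836, plus strand: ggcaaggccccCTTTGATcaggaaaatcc
Dkk1, chr19:30549596-30549624, minus strand: tcctcccaaagCTTTGAAatcccatcccg
Tnfrsf19, chr14:61038172-61038200, minus strand: ctgaatgggggATCAAAGtgacaaactag
Tcf7, chr11:52283157-52283184, minus strand: gcaccatgccgCAGCTGgactcgggcgg
Lef1, chr3:131112575-131112602, plus strand: ctctgtctcagCAGCTGaggaaacctca
Tnfrsf19, chr14:61037981-61038008, minus strand: ggggcgggttcCAGCTGcagcggttgcc

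The 10 genes followed several patterns over the 4 groups. Lef1 and Sp5 were under 1 CPM in both WT libraries and above 1 CPM in all 6 libraries of KO cells. Tcf7 was low in siTfap4 libraries alone. Notum was highest in KO, lowest in siTfap4, and spread widely between the siNeg duplicates. Axin2 and Dkk1, like Tcf7, had their highest mean in WT. Ctnnb1 had the narrowest range over the 8 libraries, 0.65 on the log2 CPM scale, and Notum the widest, 6.23. All 10 genes passed the filter on low counts, Dkk1 through its WT counts of 11 and 10.

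**Figure D1:**
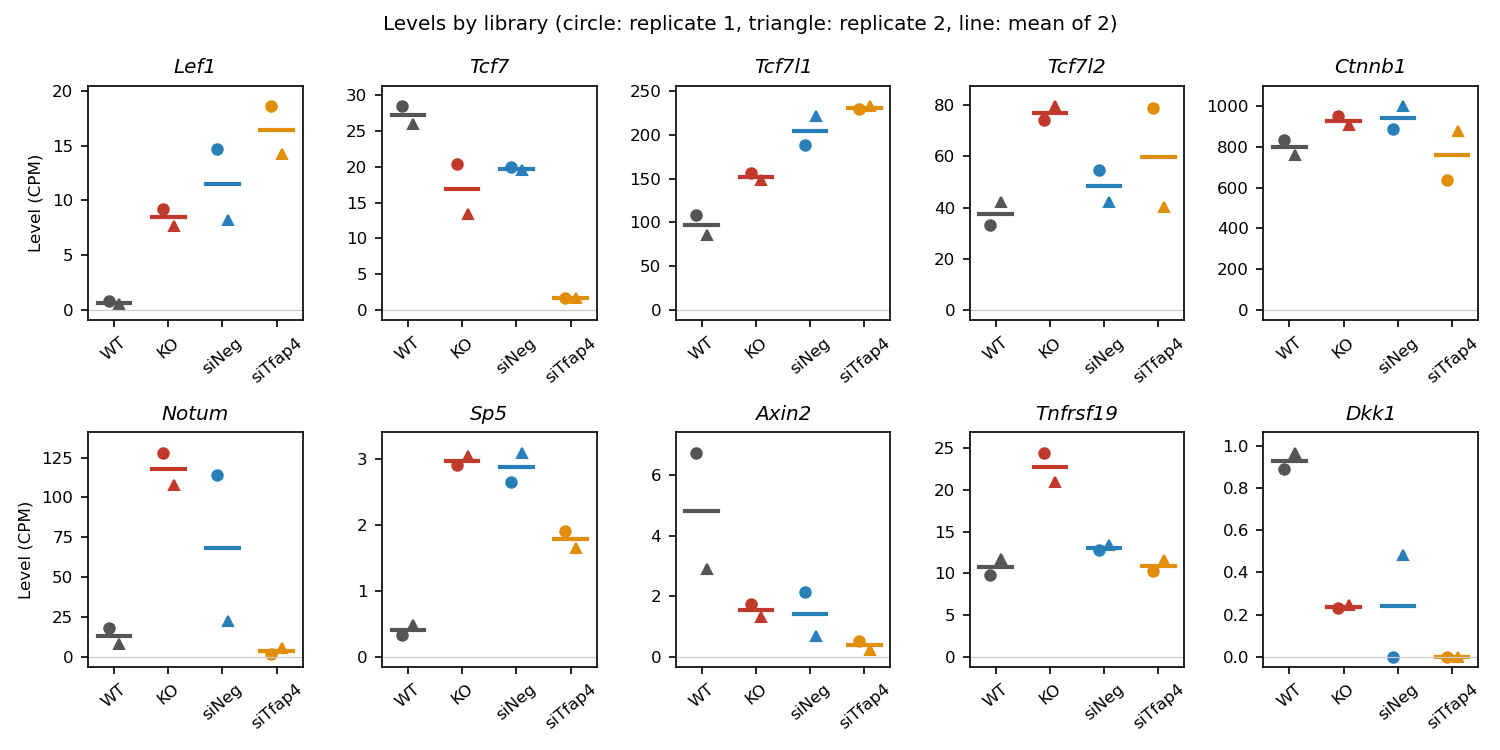
Level in CPM (linear axis) of each gene in the 8 libraries, by group, with a circle for replicate 1, a triangle for replicate 2 and a line at their mean. Lef1 is under 1 CPM in both WT libraries, Tcf7 is at 1.65 CPM in both siTfap4 libraries, and the siNeg duplicates of Notum lie at 114 and 22.3 CPM.

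Lef1 encodes an HMG-box factor that mostly activates WNT targets when bound to β-catenin, and lies on chromosome 3 (131110471 to 131224356, plus strand, GRCm38 as for all loci here). The WT libraries held 0.811 and 0.581 CPM (10 and 6 counts) and the KO libraries 9.24 and 7.66 CPM. In the siPOOL set the siNeg libraries held 14.7 and 8.22 CPM and the siTfap4 libraries 18.6 and 14.3 CPM. Both WT libraries lay below all 6 libraries of KO cells. The group means were 0.696 ± 0.163 CPM in WT and 8.45 ± 1.12 CPM in KO, and the fitted difference was 11.8-fold (log2 fold change 3.56, SE 0.50). For siTfap4 against siNeg it was 0.51 (SE 0.34), with overlapping libraries. In the order siTfap4, siNeg, KO, WT, neighbours overlapped except KO and WT.

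Tcf7 encodes TCF1, the other factor of the family known mainly as an activator, and lies on chromosome 11 (52252371 to 52283014, minus strand). It measured 28.4 and 25.9 CPM in WT libraries and 20.4 and 13.4 CPM in KO libraries, where the log2 fold change was -0.68 (SE 0.28) with no overlap. It measured 19.9 and 19.5 CPM in siNeg and 1.65 CPM in both siTfap4 libraries (13 and 14 counts). The siTfap4 libraries thus lay below all 6 others, 11.9-fold below siNeg (log2 fold change -3.57, SE 0.39). With any 1 library of that comparison left out, the value stayed between -3.60 and -3.57. Adjusted for GC content, it was -3.83 (SE 0.38). In the order WT, siNeg, KO, siTfap4, only siNeg and KO overlapped.

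Tcf7l1, the repressor of the family, lies on chromosome 6 (72626378 to 72789254, minus strand) and was the most abundant of the 4 factors in every library. WT libraries held 108.8 and 85.9 CPM, KO libraries 156 and 148 CPM, siNeg libraries 188 and 221 CPM, and siTfap4 libraries 229 and 232 CPM. No neighbours in this rising order overlapped. KO exceeded WT by 0.64 on the log2 scale (SE 0.23). The excess of siTfap4 over siNeg was 0.17 (SE 0.22), and 0.61 (SE 0.23) adjusted for GC content.

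Tcf7l2, which encodes TCF4, a factor with activating and repressing isoforms, lies on chromosome 19 (55741820 to 55933654, plus strand). WT libraries held 33.1 and 42.2 CPM and KO libraries 74.2 and 79.5 CPM, 2.04-fold more (log2 fold change 1.03, SE 0.30), with no overlap. The siNeg libraries held 54.6 and 42.1 CPM and the siTfap4 libraries 78.8 and 40.4 CPM. The siTfap4 duplicates thus differed 1.95-fold from each other. The log2 fold change from siNeg, 0.30 (SE 0.30), became -0.27 without siTfap4 replicate 1. Neighbours overlapped throughout the order KO, siTfap4, siNeg, WT.

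The make-up of the TCF/LEF transcripts differed between groups, as the plot of their shares shows. Lef1 was 0.425% ± 0.070 (SD, n = 2) of the summed CPM of the 4 factors in WT and 3.32% ± 0.33 in KO libraries. Tcf7 was 16.7% ± 0.124 in WT and 6.62% ± 1.72 in KO libraries. The Tcf7l1 share was alike in both, at 59.6% ± 5.67 and 59.8% ± 0.372. Between siNeg and siTfap4 the Tcf7 share was 6.95% ± 0.338 and 0.538% ± 0.047, and the Lef1 share 4.06% ± 1.76 and 5.30% ± 0.514. Tcf7 exceeded Lef1 in each library of WT, KO and siNeg, and Lef1 exceeded Tcf7 in both siTfap4 libraries. The sum was 162.9 ± 11.7 CPM for WT, 254 ± 8.13 CPM for KO, 284 ± 9.69 CPM for siNeg and 308 ± 27.8 CPM for siTfap4.

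**Figure D2:**
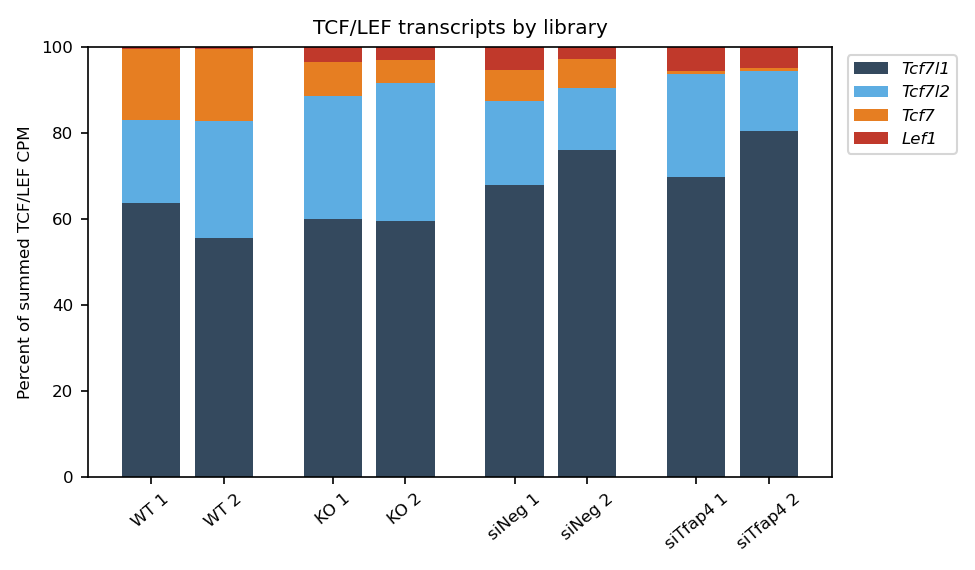
Share (percent, linear axis from 0) of each TCF/LEF gene in the summed CPM of the 4 genes, with a stacked bar for each library. Tcf7l1 is the largest part of every bar, between 55.6% and 80.5%, and the Tcf7 part is 0.504% and 0.571% in the siTfap4 bars.

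Ctnnb1, the β-catenin gene, lies on chromosome 9 (120929216 to 120960507, plus strand) and was the most abundant of the 10 genes. It measured 834 and 762 CPM in WT libraries, 951.5 and 906 CPM in KO, 888 and 998 CPM in siNeg, and 637 and 878 CPM in siTfap4. The log2 fold change was 0.22 (SE 0.23) for KO against WT and -0.32 (SE 0.23) for siTfap4 against siNeg. The libraries overlapped in neither comparison, and both differences were under 1.5 SE.

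Notum, the secreted WNT-inactivating enzyme, lies on chromosome 11 (120653788 to 120661175, minus strand). WT libraries held 18.2 and 8.03 CPM and KO libraries 128 and 107.5 CPM (1675 and 1305 counts). The difference was 8.90-fold (log2 fold change 3.15, SE 0.69), and between 2.70 and 3.88 with any 1 library left out. In the siPOOL set Notum measured 114 and 22.3 CPM in siNeg and 1.53 and 5.54 CPM in siTfap4 libraries. Both siTfap4 libraries lay below all others, and the siNeg duplicates differed 5.12-fold from each other, with Tfap4 at 34.4 CPM in the first and 37.3 CPM in the second. Axin2 and Lef1 were also lower in siNeg replicate 2, 3.16-fold and 1.79-fold. The fitted difference was 19.1-fold (log2 fold change -4.25, SE 0.80), -2.65 without siNeg replicate 1 and -5.49 without siTfap4 replicate 2.

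The last 100 bases of Notum have a GC content of 14%, against a median of 38% over tested genes, and adjusted for GC content its siTfap4 difference was 11.4-fold (log2 fold change -3.51, SE 0.63). Notumos, an antisense gene overlapping Notum, held 8 and 7 counts in WT libraries and 53 and 38 in KO libraries. It held 21 and 35 counts in siNeg and 5 and 12 in siTfap4 libraries. Whether the counting used strand is not stated, so reads of the pair cannot be told apart.

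Sp5, a direct WNT target in many tissues, lies on chromosome 2 (70474923 to 70477729, plus strand). Its WT libraries had 4 and 5 counts (0.325 and 0.484 CPM) and its KO libraries 38 and 37 counts (2.90 and 3.05 CPM), 7.29-fold more (log2 fold change 2.87, SE 0.59). It measured 2.65 and 3.09 CPM in siNeg and 1.91 and 1.65 CPM in siTfap4 libraries, a log2 fold change of -0.69 (SE 0.48). Only KO and siNeg overlapped in the order KO, siNeg, siTfap4, WT.

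Axin2, often used as a readout of WNT signalling, lies on chromosome 11 (108920349 to 108950783, plus strand). In KO against WT it went the opposite way from Notum and Sp5. WT libraries held 6.73 and 2.90 CPM (83 and 30 counts) and KO libraries 1.76 and 1.32 CPM (23 and 16 counts), a log2 fold change of -1.66 (SE 0.52), or -0.90 without WT replicate 1. The siNeg libraries held 2.14 and 0.677 CPM and the siTfap4 libraries 0.509 and 0.236 CPM (4 and 2 counts), a log2 fold change of -1.94 (SE 0.94), or -0.88 without siNeg replicate 1. The GC content of its last 100 bases is 19%, and adjusted for it siTfap4 was 2.56-fold lower than siNeg, where the unadjusted value was 3.84-fold.

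Tnfrsf19, also called Troy, is a TNF receptor family gene known as a WNT target in intestinal stem cells, on chromosome 14 (60963875 to 61046490, minus strand). WT libraries held 9.74 and 11.7 CPM and KO libraries 24.4 and 20.9 CPM, 2.12-fold more (log2 fold change 1.08, SE 0.28). The siNeg libraries held 12.8 and 13.3 CPM and the siTfap4 libraries 10.3 and 11.5 CPM (log2 fold change -0.25, SE 0.29). All 4 siPOOL libraries thus lay below both untreated KO libraries, and siTfap4 overlapped WT.

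Dkk1, the LRP antagonist, lies on chromosome 19 (30545863 to 30549665, minus strand). It had 11 and 10 counts in WT libraries, 3 in each KO library, 0 and 5 in siNeg, and 0 in both siTfap4 libraries. KO was below WT by a log2 fold change of -1.91 (SE 0.88). No count over the siTfap4 group allows up to 0.175 CPM (3 counts, counting error only), so a difference from siNeg (0.242 ± 0.342 CPM) was not detectable at this depth.

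**Figure D3:**
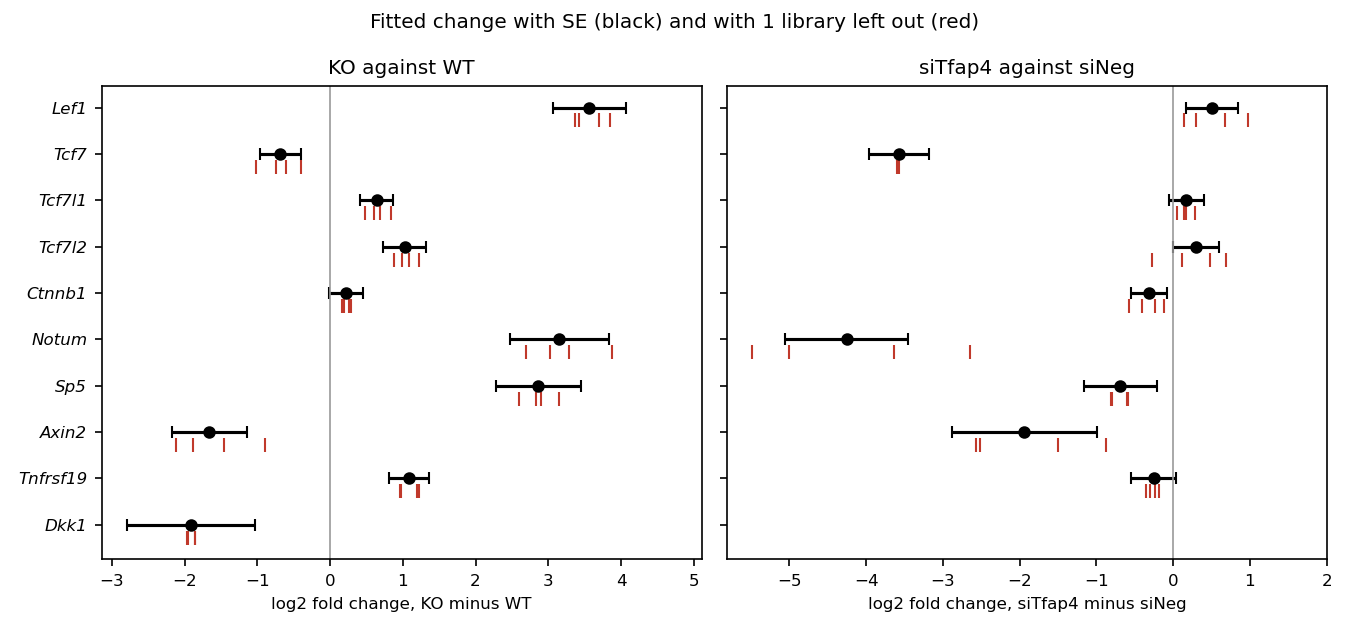
Fitted log2 fold change of each gene in both comparisons (black point, bar of 1 SE) and its values with each library of the comparison left out in turn (red ticks). Dkk1 has no value in the panel of siTfap4 against siNeg, where both siTfap4 libraries have 0 counts. The ticks of Lef1 in KO against WT span 3.37 to 3.84, and those of Notum in siTfap4 against siNeg span -5.49 to -2.65.

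In the edgeR fit over 15137 tested genes, 5 of the 10 had an adjusted p under 0.05 in KO against WT, where 9.95% of all tested genes did. These 5, Lef1, Tcf7l2, Notum, Sp5 and Tnfrsf19, were higher in KO, as were 5.99% of tested genes, and 0 of the 10 were called lower, against 3.96%. Axin2 was called lower with RLE factors, with no filter, with the replicate block, and adjusted for GC content with or without the block. It was not called by DESeq2, on the comparison's own 4 libraries, or with a filter of at least 10 counts in 4 libraries. Its log2 fold change was -2.115 without WT replicate 2 and -0.90 without WT replicate 1. With no filter Notum was not called in KO against WT. Whichever library of WT or KO was left out, Tcf7l2, Notum and Tnfrsf19 lost their call. Their log2 fold changes then ranged over 0.87 to 1.22, 2.70 to 3.88 and 0.96 to 1.22, in that order. Sp5 lost its call without WT replicate 1 (2.60), and Lef1 kept it throughout. Libraries of WT and KO did not overlap for 10 of the 10, where this held for 57.5% of tested genes. In siTfap4 against siNeg, 2 of the 10 were called, Tcf7 and Notum, where 15.4% of tested genes were. Both were lower, as were 11.1% of tested genes, and 0 of the 10 were called higher, against 4.36%. The count was 1 without siTfap4 replicate 1. Libraries did not overlap for 7 of the 10, against 58.3% of tested genes. Since the genes were picked with these values known, nothing is read from the counts.

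Other genes of the pathway were put into 10 lists by their roles, with earlier results of these data known. Of their 119 genes 82 were expressed enough to test, with ligands (5 of 19) and the R-spondin arm (4 of 9) the least covered. In KO against WT 4 of the 82 rose and 7 were called lower (Kremen2 among them, which passed the filter through its WT counts alone), 13.4% called beside 9.95% of all tested genes, with a median log2 fold change of -0.05 beside -0.01. In siTfap4 against siNeg 3 rose and 15 fell, where 4.36% and 11.1% of all tested genes did. In either direction 22.0% were called beside 15.4%, with a median of -0.17 beside 0.01.

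In KO against WT the ligand gene Wnt7b and the Frizzled receptor gene Fzd2 rose, and both kept their call under every alternative tried. Wnt7b, the ligand gene with the highest mean over the 4 groups, though below Wnt6 in WT, measured 4.95 and 2.03 CPM in WT and 19.1 and 11.7 CPM in KO libraries (log2 fold change 2.11, SE 0.41, edgeR adjusted p = 0.00396). Fzd2 measured 4.14 and 2.61 CPM in WT and 14.7 and 15.2 CPM in KO libraries (log2 fold change 2.12, SE 0.35, edgeR adjusted p = 0.00102). Another ligand gene, Wnt6, fell (-1.48, SE 0.40), as did Dkk3 of the Dickkopf family (-2.07, SE 0.50), but neither was called by DESeq2 (adjusted p = 0.0692 and 0.0986). Kremen2, a receptor for Dickkopf proteins, had 13 and 11 counts in WT and 1 and 2 in KO libraries. As it passed the filter through WT alone, this is a description, and DESeq2 did not call it (adjusted p = 0.166). Of the nuclear cofactors and corepressors, the TLE family gene Tle5 fell (-1.32, SE 0.27).

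Of the tested target genes outside the 10 described here, Ascl2 (-1.72, SE 0.41) and Cdx1 (-1.42, SE 0.37) fell. Of 6 pluripotency genes known to be repressed by TCF7L1, Klf2 rose (0.94, SE 0.25) and Tcl1 fell (-0.88, SE 0.22), with a list median of 0.29. No gene was called among 2 of ligand maturation, 4 of the R-spondin arm, 15 of the destruction complex and transduction, and 4 catenin and cadherin partners. Their most abundant genes were Porcn (0.63, SE 0.29), Lgr4 (0.58, SE 0.29), Csnk1a1 (-0.03, SE 0.23) and Cdh1 (0.09, SE 0.22). The count of 11 became 8 and 4 without WT replicate 1 and WT replicate 2, and 3 and 5 without KO replicate 1 and KO replicate 2. Wnt6, Kremen2 and Tcl1 lost their call whichever library was left out. Dkk3, Klf2 and Cdx1 did so for each library except WT replicate 1, and Ascl2 for each except WT replicate 2. Tle5 lost its call without WT replicate 2 or KO replicate 1.

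In siTfap4 against siNeg 6 of 14 tested receptor and co-receptor genes fell and 0 rose, with a list median of -0.67. Of all tested genes 11.1% were called lower and 4.36% higher in this comparison. Ptk7, a receptor-like protein of planar cell polarity, measured 35.1 and 25.4 CPM in siNeg and 4.45 and 2.59 CPM in siTfap4 libraries (log2 fold change -3.11, SE 0.34, edgeR adjusted p = 4.11e-05). Ryk, a WNT-binding receptor-like kinase, measured 98.3 and 76.9 CPM in siNeg and 21.2 and 36.8 CPM in siTfap4 libraries (-1.59, SE 0.28, edgeR adjusted p = 0.00128). The Frizzled genes Fzd2 (-1.22, SE 0.35), Fzd5 (-1.07, SE 0.27), Fzd6 (-1.94, SE 0.61) and Fzd10 (-1.63, SE 0.35) fell as well. Adjusted for GC content, Fzd2, Fzd5 and Fzd6 were not called (edgeR adjusted p = 0.0627, 0.186 and 0.124), while Ptk7, Ryk and Fzd10 were. In the R-spondin arm the receptor gene Lgr4 fell from 64.9 ± 23.1 to 15.1 ± 2.38 CPM (-2.10, SE 0.31, edgeR adjusted p = 0.000369). Znrf3, a ubiquitin ligase that removes Frizzled proteins, fell by 1.51 on the log2 scale (SE 0.36), and was not called when adjusted for GC content (edgeR adjusted p = 0.0624).

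Ctnnd1, which encodes p120-catenin, a partner of cadherins, had the lowest fold change of the 82 genes. It measured 154.9 and 44.0 CPM in siNeg and 2.54 and 2.12 CPM in siTfap4 libraries (log2 fold change -5.41, SE 0.57, edgeR adjusted p = 0.000102), or -4.25 without siNeg replicate 1. As for Notum, siNeg replicate 2 was the lower duplicate. Jup, which encodes plakoglobin, a close relative of β-catenin, fell from 202 ± 58.6 to 58.8 ± 20.4 CPM (-1.78, SE 0.28, edgeR adjusted p = 0.000677). Cdh1, the E-cadherin gene, was at 591 ± 22.8 and 618 ± 64.3 CPM (0.07, SE 0.22).

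Of the 10 tested target genes 3 fell in siTfap4 against siNeg and 0 rose, beside 11.1% and 4.36% of all tested genes. Bambi, a pseudoreceptor of TGF-beta signalling, had 91 and 36 counts in siNeg and 1 and 2 in siTfap4 libraries, a ratio of 32.7 (95% exact interval 10.95 to 160.8, counting error only). The cyclin D1 gene Ccnd1 fell from 230.1 ± 14.3 to 94.4 ± 16.4 CPM (-1.28, SE 0.30), and Cdx1 fell as well (-2.20, SE 0.62), though not when adjusted for GC content (edgeR adjusted p = 0.0707). Nanog, of the genes repressed by TCF7L1, measured 411 and 316 CPM in siNeg and 79.6 and 178 CPM in siTfap4 libraries (-1.49, SE 0.30).

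The rises were in Amer1 (0.96, SE 0.27) and Gsk3a (0.74, SE 0.24) of the destruction complex and in the β-catenin cofactor gene Bcl9l (1.06, SE 0.33), while the corepressor gene Tle1 fell (-1.04, SE 0.31). Adjusted for GC content, Gsk3a and Tle1 were not called (edgeR adjusted p = 0.150 and 0.0762). Gsk3a lost its call in 8 of 12 alternatives, with the replicate block among them (edgeR adjusted p = 0.0678), and Amer1 in 4, with the comparison's own 4 libraries among them (edgeR adjusted p = 0.0576). Bcl9l lost it without siNeg replicate 1, siNeg replicate 2 or siTfap4 replicate 1. No gene was called among 5 ligands, 2 of ligand maturation and 8 antagonists, led in abundance by Wnt7b (0.86, SE 0.35), Porcn (0.46, SE 0.29) and Sfrp1 (0.09, SE 0.31). The count of 18 became 6 without siNeg replicate 1 and 7 without siTfap4 replicate 1. Ryk, Ptk7, Lgr4, Jup, Ctnnd1 and Bambi kept their call under every alternative tried. Fzd2 and Cdx1 were called in both comparisons, which share no library but were fitted together with a shared estimate of the spread. Fzd2 rose in KO and fell in siTfap4, and Cdx1 fell in both. Adjusted for GC content, neither was called in siTfap4 against siNeg (edgeR adjusted p = 0.0627 and 0.0707).

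**Figure D4:**
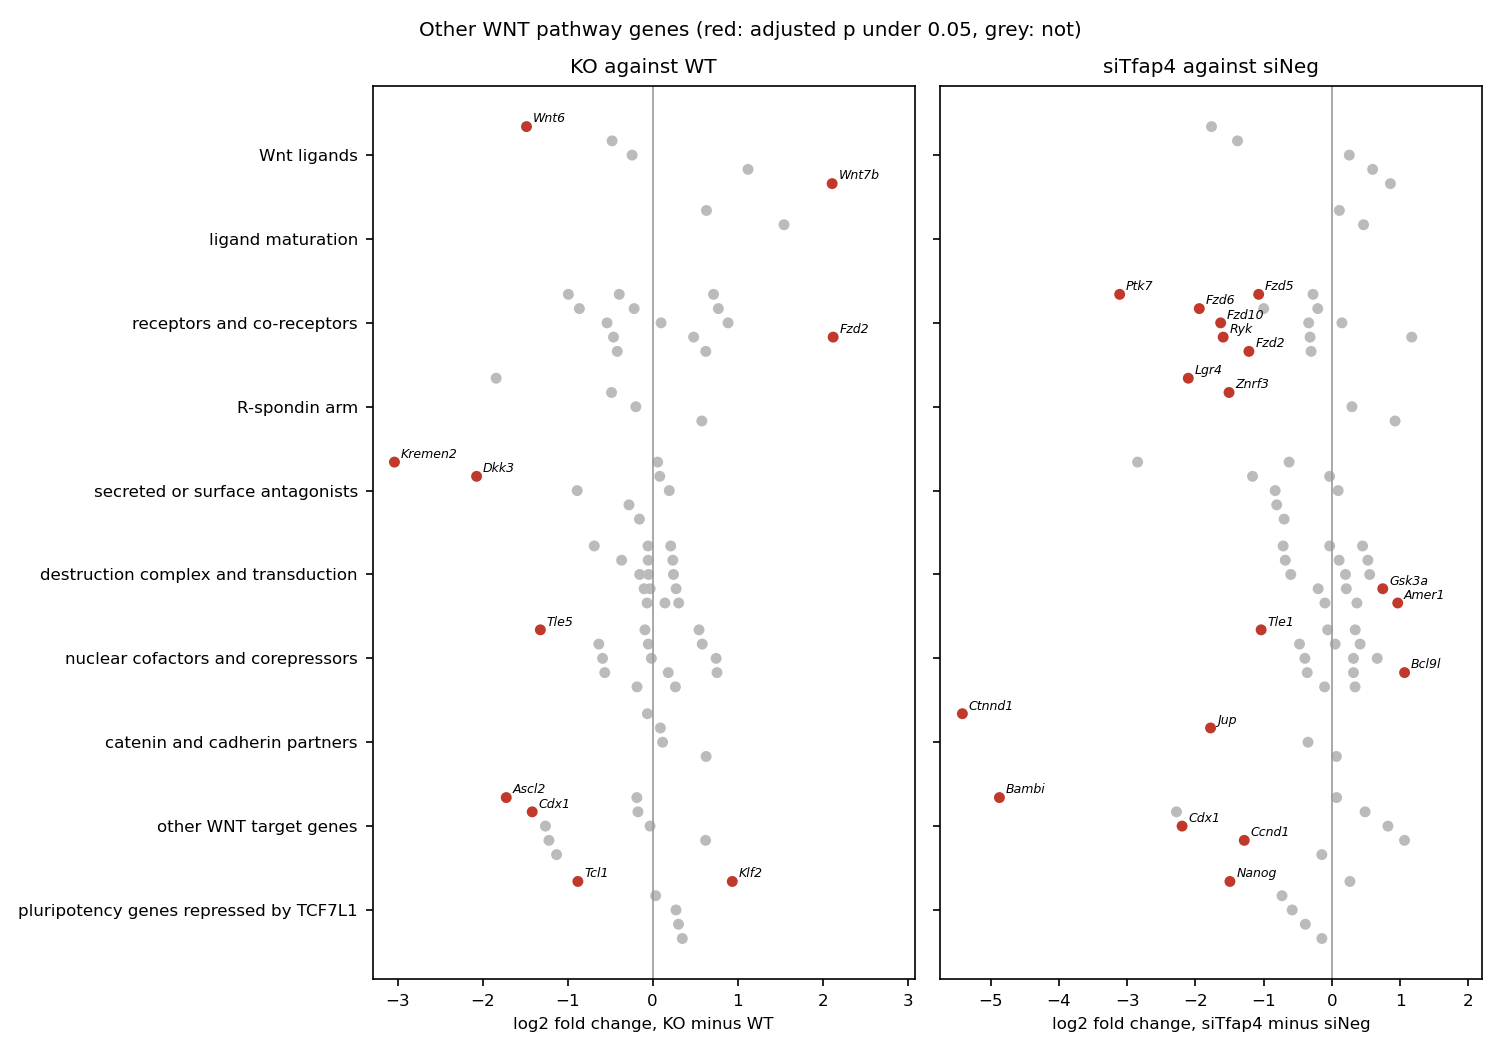
Fitted log2 fold change of 81 of the 82 tested genes of the other WNT lists, a band for each list (vertical spread within a band only separates points), in KO against WT and in siTfap4 against siNeg. Red points with names have an edgeR adjusted p under 0.05 and grey points do not. In siTfap4 against siNeg 15 red points lie left of 0 and 3 right of it, with Ctnnd1 farthest left at -5.41.

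Summed markers of other cell types, except those of the primitive streak, differed between WT libraries and libraries of KO cells. Their part in these results was not tested. Primitive endoderm markers (7 of 7 tested, Dab2 the most abundant) summed to 66.4 and 54.5 CPM in WT and to between 6.24 and 10.4 CPM in the 6 libraries of KO cells. Gata6 and Dab2 fell in KO against WT, and Sox17 and Pdgfra, which passed the filter through WT counts alone, were called lower. In bulk samples fewer cells of a type and less RNA per cell cannot be told apart. Trophoblast markers summed to 93.3 and 98.2 CPM in WT and to between 156 and 382 CPM in libraries of KO cells, mostly from Tfap2c, which rose. Krt7 was called higher but not with the replicate block (edgeR adjusted p = 0.0567) or by DESeq2 (adjusted p = 0.0733), while Cdx2 and Elf5 were under 1 CPM everywhere. Neural markers, led by Tubb3, summed to 32.7 and 51.2 CPM in WT and 62.7 to 96.0 CPM in libraries of KO cells. Of these 4 genes only Pax6 was called in KO against WT, and it rose. Streak markers, led by Eomes, summed to between 3.16 and 12.1 CPM, with T, Mixl1 and Gsc under 1 CPM everywhere. Fibroblast markers, led by Thy1, summed to 29.0 and 49.9 CPM in WT and 7.18 to 20.2 CPM in libraries of KO cells. Thy1 fell, though not without WT replicate 2 or KO replicate 1 (edgeR adjusted p = 0.257 and 0.285) or on the comparison's own 4 libraries (0.0561). Col1a1, with 21 and 17 counts in WT and 5 or fewer in every other library, passed the filter through WT alone and lost its call in 8 alternatives. Postn was at 0, and Col1a2 and Acta2 were under 1 CPM. None of these 5 lists had a called gene in siTfap4 against siNeg.

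GC content moved with the siPOOL groups. From genes with 25% to genes with 51% GC in the last 100 bases, the fitted trend of log2 level (relative to the gene's mean) rose by 0.84 and 0.53 in the siTfap4 libraries. It changed by -0.38 and 0.10 in siNeg, by -0.32 and -0.26 in KO, and by -0.32 and -0.19 in WT. The values above adjusted for GC content take out this trend.

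Of tested genes with a mean of at least 10 CPM, those most like Lef1 by the mean absolute difference in centred log2 CPM over the 8 libraries were Gm26812 (0.18), Lgals9 (0.25) and Maats1 (0.29), where the median of 8623 genes was 1.41. Lgals9, which encodes galectin-9, measured 5.19 and 3.77 CPM in WT and 50.7 to 87.3 CPM in libraries of KO cells. Most like Notum were Gm14267 (0.65), 9530068E07Rik (0.72) and St6gal1 (0.74), where the median was 1.85. St6gal1, a sialyltransferase gene, measured 8.60 and 4.74 CPM in WT, 31.7 and 21.7 CPM in KO, 11.4 and 12.7 CPM in siNeg, and 0.509 and 2.83 CPM in siTfap4.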

How the data were processed

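The deposited table holds raw counts per gene, which the authors made from QuantSeq 3′ FWD libraries, and the submitters' processing notes name Trim Galore and GRCm38. Aligner, counter, strand setting and annotation are not stated in the sources used here. Symbols came from GENCODE M21, and 267 identifiers had none.

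In edgeR 4.0.16 (R 4.3.3), filterByExpr kept 15137 genes. With TMM scaling, 1 mean per group was fitted by robust quasi-likelihood over the 8 libraries, which leaves 4 residual degrees of freedom. Adjusted p-values are by Benjamini-Hochberg over all tested genes, with 0.05 as threshold. An SE is the absolute log2 fold change over the root of its F statistic. The fit was also run on simulated counts with no GC trend, and no result above rests on that run.

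The members and lists were chosen with earlier results of these data known. Named were the 10 members, called genes of the other lists and markers (or the most abundant), Tfap4, and the 3 genes most like each of the 2 members of widest range. One item named by this rule is not reported here. Alternatives were DESeq2 1.42.0, RLE factors, 2 other filters, each comparison's 4 libraries alone, a replicate block and each library left out, where a lone library is assumed to vary like the other groups. The GC adjustment, added after seeing the data, used a lowess curve per library (span 0.3) as an offset.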

Additional observations from a re-analysis of the deposited data

How the results depend on the processing

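Of the 10 described genes, Tfap4, the other WNT genes and the markers, none changed direction under any alternative in a comparison where it was called. With 1 library left out, genes called numbered 629 to 880 in KO against WT (1506 with all libraries) and 522 to 2961 in siTfap4 against siNeg (2334 with all), the lowest without KO replicate 1 and siTfap4 replicate 1. The counts of other WNT genes were then 3 to 8 (11 with all) and 6 to 21 (18 with all), and of the 10 described genes 1 to 3 (5 with all) and 1 to 2 (2 with all). Fewer libraries were fitted in each. The 3 of the 10 described genes include Axin2, called lower without WT replicate 2. On its own 4 libraries KO against WT called 17 other WNT genes, and without a filter siTfap4 against siNeg called 1 of the 10, Tcf7. The cause was not tested. Samples with the same replicate number showed little correlation of deviations (-0.0613 in the untreated and 0.126 in the siPOOL set). The replicate block joined samples by number, and no block by the shared tag CC was fitted. With the replicate block 1337 and 2064 genes, 12 and 17 other WNT genes, and 6 (Axin2 added, lower) and 2 of the 10 were called. Adjusted for GC content, 12 other WNT genes were called in either comparison. Few counts limit the precision for Sp5, Axin2 and Dkk1, and for Lef1 in WT libraries (10 and 6 counts).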

Other observations

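KO cells were measured untreated and with the control siPOOL, in sets prepared apart, so set and transfection cannot be told apart and no test was made. Means were close for Sp5 (2.97 CPM untreated and 2.87 CPM with siNeg), Axin2 (1.54 and 1.41 CPM) and Ctnnb1 (929 and 943 CPM). The siNeg mean was 1.36-fold the untreated mean for Lef1 and 1.35-fold for Tcf7l1. The untreated mean was 1.72-fold the siNeg mean for Notum, 1.74-fold for Tnfrsf19 and 1.59-fold for Tcf7l2.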
